A study of Mus musculus with 6 samples.

Results

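TRBV31 is a mouse T cell receptor β chain (TCR-β) variable gene, and every TRBV31 chain in 6 TCR-β libraries was described here. A member is a sequence assigned to TRBV31 by the authors whose complementarity-determining region 3 (CDR3, the loop made where the gene segments join) carries no stop or frame mark. Such a sequence is called productive, and each distinct pairing of V gene, J gene and CDR3 is a clonotype. TRBV31 accounted for 9372 of 187625 distinct productive clonotypes, or 5.00%, and for 19696 of 496196 productive reads. The members were chosen by their V assignment and by the absence of a mark, so neither is a result. All mice were C57BL/6 and carried subcutaneous tumors of MO4, an OVA-expressing (ovalbumin) derivative of the B16F10 melanoma, in the right and the left leg, each grown from 100000 cells given on day 0. IFN-α-iPSC-pMCs, 1000000 per injection, were placed around the right tumor on each day from 5 to 7 and again on days 12 and 13, and RNA was taken on day 14. The treated tumor is the right one, and the distant tumor is the left one, which had no cells placed around it. Spleen is the third group. Each group has 2 libraries, numbered 1 and 2, and the series describes 2 mice. No group of untreated mice is part of the comparison, so both tumors and the spleens come from mice that received the cells. The labels used here give neither age nor sex. The files hold TCR-β sequences alone, so the labelled tissues could not be checked against marker genes.

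A TCR-β chain is made when a V gene is joined to a D and a J segment, with germline bases trimmed and other bases added at both joints. Most mouse TRBV genes lie upstream of the D and J segments in the same orientation and join by deleting the DNA between. TRBV31 lies beyond the constant genes in the opposite orientation, and it joins by inverting that DNA. Of the D segments, TRBD1 lies ahead of both J clusters and can join either, whereas TRBD2 lies between the clusters and joins TRBJ2 genes.

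In the GENCODE M21 annotation (GRCm38), TRBV31 (ENSMUSG00000076499.3) spans chromosome 6, 41557691 to 41558452, on the minus strand. All 23 TRBV genes named in the files matched that annotation, and the other 22 lie on the plus strand. The near end of TRBV31 is 9338 bp beyond the constant gene TRBC2 and 13834 bp beyond TRBJ2-7, whereas 251210 bp separate TRBV30, the nearest upstream TRBV gene, from TRBD1. The germline letters that the CDR3 results turn on come from the GENCODE transcripts. Capitals in the TRBV31 line mark the bases from the codon of the conserved cysteine, which opens the CDR3.

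TRBV31, last 60 bases of the V region: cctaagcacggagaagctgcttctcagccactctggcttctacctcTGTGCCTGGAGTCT
TRBD1: GGGACAGGGGGC
TRBD2: GGGACTGGGGGGGC
TRBJ1-4, start to the codon of the conserved phenylalanine: TTTCCAACGAAAGATTATTTTTC
TRBJ2-7, start to the codon of the conserved phenylalanine: CTCCTATGAACAGTACTTC

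The 14 capital bases of TRBV31 encode the residues CAWS and leave the bases CT. Any base that follows CT completes a leucine codon, so an untrimmed TRBV31 end gives leucine at residue 5. Of 19 TRBV genes with an annotated germline end, TRBV31 was the one whose end reads CAWS, and 14 of the others start with CASS.

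The productive libraries held 42320 to 135599 reads in 7539 to 92233 clonotypes. Merging variants 1 residue away from a clonotype of at least 10 times the reads removed 18.1% to 35.1% of tumor clonotypes and 1.04% and 1.06% of spleen clonotypes. Clonotypes of 1 read made up 66.2% to 82.0% of the TRBV31 clonotypes of a library. No molecular identifiers are named, so reads are not independent molecules, and intervals here cover counting error only. In bulk RNA, fewer T cells with a chain and less of its RNA per cell cannot be told apart.

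TRBV31 took a smaller share of each tumor library than of either spleen library. Its share of productive reads was 4.12% in treated tumor 1 (Wilson 95% interval 3.99% to 4.26%) and 2.18% in treated tumor 2 (2.07% to 2.31%). In the distant tumors it was 1.26% (1.18% to 1.33%) in number 1 and 2.63% (2.48% to 2.79%) in number 2. The spleens held 6.13% (5.98% to 6.29%) in number 1 and 5.13% (5.01% to 5.25%) in number 2. TRBV31 ranked 6th and 11th among the TRBV genes by reads in the spleens and between 12th and 18th in the tumors.

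The means were 2.55% ± 1.20 (SD, n = 4) in tumors and 5.63% ± 0.712 (SD, n = 2) in spleens. On the log2 scale TRBV31 usage differed by -1.19 (SE 0.41) between tumors and spleens, which did not pass edgeR's quasi-likelihood test after adjustment over the 23 TRBV genes (adjusted p = 0.185). In this comparison edgeR called 0 of 23 TRBV genes (0%), with 4 at an unadjusted p under 0.05, and DESeq2 called 2. With each clonotype counted once the difference was -0.90 (SE 0.25) and passed (edgeR adjusted p = 0.0327), where 9.52% of the TRBV genes tested were called. Without distant tumor 2 the difference in reads was -1.50 and passed (edgeR adjusted p = 0.00676), and without spleen 1 it was -1.05 and did not (adjusted p = 0.800).

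Counted once per clonotype, TRBV31 made up 3.99% of treated tumor 1, 2.57% of treated tumor 2, 2.28% of distant tumor 1 and 3.17% of distant tumor 2. The spleen values were 6.05% and 5.13%. All 4 tumors again lay below both spleens, and the gap between distant tumor 1 and the other tumors was smaller than in reads. Distant tumor 1 had 4.05 reads per TRBV31 clonotype against 7.41 for the other TRBV genes, whereas treated tumor 1 had 6.74 against 6.51. The other genes of distant tumor 1 include TRBV12-1, which held 24.4% of its productive reads and 1.44% to 5.37% in the other libraries. In the spleens both kinds had 1.47 to 1.52 reads per clonotype.

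**Figure D1:**
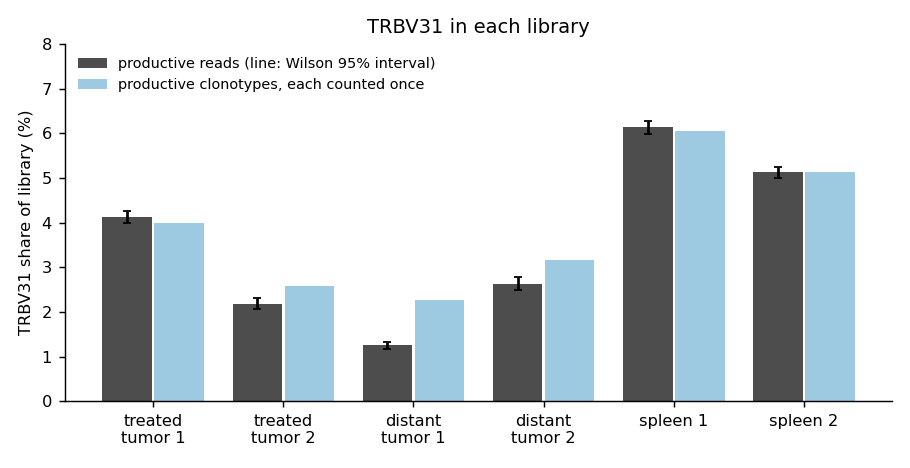
TRBV31 share of each library in percent, as productive reads (dark bars, line: Wilson 95% interval) and as productive clonotypes counted once (light bars). Both bars of each tumor are lower than both bars of either spleen, from 1.26% of reads in distant tumor 1 to 6.13% in spleen 1.

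Treated and distant tumors did not differ in a shared direction. In number 1 the TRBV31 share of reads was 3.28 times as high in the treated tumor as in the distant tumor, and in number 2 it was 0.829 times as high. The treated tumors averaged 3.15% ± 1.37 and the distant tumors 1.94% ± 0.973 (SD, n = 2 each). The edgeR difference on the log2 scale was 0.70 (SE 0.49, adjusted p = 0.383), with 0 of 23 TRBV genes called (0%), 3 at an unadjusted p under 0.05 and 2 called by DESeq2. With clonotypes counted once it was 0.27 (SE 0.30, edgeR adjusted p = 0.713), where 4.76% of the genes tested were called. The shares of the 2 groups overlapped.

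By the rule for similar patterns, the TRBV genes whose read shares varied most like TRBV31 over the 6 libraries were TRBV1, TRBV15 and TRBV13-2. The mean absolute difference from TRBV31 in log2 share, centred on each gene, was 0.31, 0.38 and 0.43. TRBV1, at the far end of the locus, held 5.55% and 4.87% of reads in the treated tumors, 2.95% and 4.01% in the distant tumors and 8.51% and 7.16% in the spleens. As for TRBV31, distant tumor 1 was the lowest and spleen 1 the highest of the 6.

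TRBV31 was joined to TRBJ1 genes more often than other TRBV genes were, in each of the 6 libraries. In treated tumor 1, 280 of 509 TRBV31 clonotypes, 55.0%, carried a TRBJ1 gene (Wilson 95% interval 50.7% to 59.3%), against 31.7% for the other TRBV genes. The TRBV31 and other shares were 48.5% and 30.7% in treated tumor 2, 39.6% and 37.4% in distant tumor 1, and 42.7% and 32.7% in distant tumor 2. They were 35.4% and 31.9% in spleen 1, and 35.8% and 31.3% in spleen 2. The mean difference was 10.2 percentage points ± 8.61 (SD, n = 6), higher in 6 of 6 libraries (exact paired permutation p = 0.0312, two-sided, the smallest p this test can give). With 6 differences of the same sign, this p follows from their number and not from their spread. Libraries of 2 mice are not 6 independent samples.

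The excess was narrow in the spleens, at 3.55 and 4.46 percentage points, and ranged from 2.20 to 23.3 in the tumors. In distant tumor 1, with the 2.20, TRBV12-1 supplied 1297 of the 10946 clonotypes of the other genes. A TRBJ1 gene was carried by 78.6% of those 1297. The excess without TRBV12-1 was not computed. TRBV31 clonotypes with a TRBJ1 gene averaged 46.4% ± 6.79 in tumors (SD, n = 4) and 35.6% ± 0.247 in spleens (SD, n = 2). That difference of 10.9 percentage points did not pass (two-sided exact permutation p = 0.133 for 4 libraries against 2), in a design whose smallest p is 0.0667. Among the TRBV genes with at least 20 clonotypes, TRBV31 ranked 2nd by TRBJ1 share in both treated tumors and in distant tumor 2, 10th in distant tumor 1, and 6th and 5th in the spleens. TRBV30, its nearest upstream neighbor among the plus-strand genes, had 86.1% TRBJ1 in treated tumor 1 and 0% of 30 clonotypes in treated tumor 2. TRBV29 and TRBV26 in the spleens had TRBJ1 shares of 35.7% to 37.2%, and TRBV1 had 36.0% and 36.1%, all within 2 points of TRBV31.

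**Figure D2:**
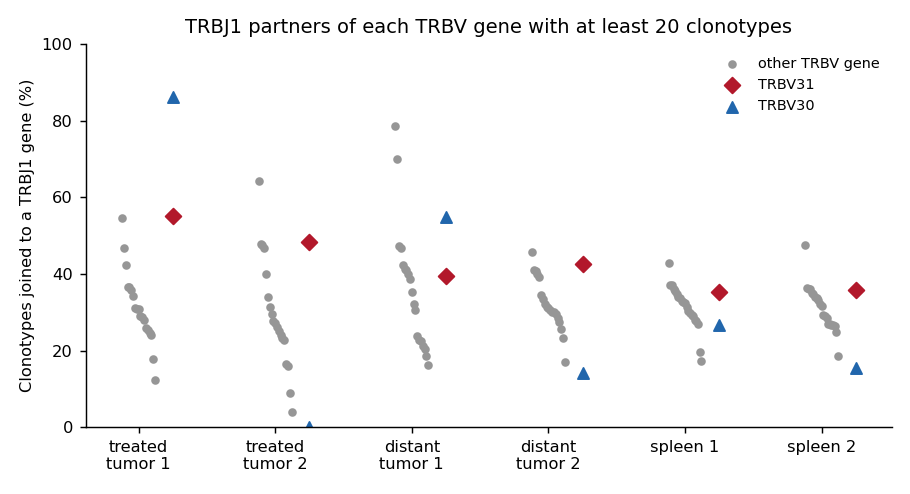
Percent of clonotypes joined to a TRBJ1 gene for each TRBV gene with at least 20 clonotypes, by library (diamond: TRBV31, triangle: TRBV30, gray: other TRBV genes). TRBV31 stands near the top in treated tumor 1 at 55.0% and lies within the run of other genes in the spleens at 35.4% and 35.8%.

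Among the TRBJ genes, TRBJ1-4 stood out as a partner of TRBV31. It was carried by 26.9% of TRBV31 clonotypes in treated tumor 1, 18.0% in treated tumor 2, 12.2% in distant tumor 1, 12.8% in distant tumor 2, 7.99% in spleen 1 and 7.59% in spleen 2. The other TRBV genes carried it in 5.75%, 4.33%, 5.14%, 6.26%, 6.10% and 6.14% of clonotypes, in the same order. TRBV31 was therefore above the other genes in 6 of 6 libraries, by 1.45 and 1.89 percentage points in the spleens and by 6.55 to 21.2 in the tumors. In a fit with the library as a block, edgeR gave a log2 difference of 1.18 (SE 0.30, adjusted p = 0.0179 over 12 TRBJ genes).

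TRBJ2-7, the most used TRBJ gene of the other TRBV genes, was less often joined to TRBV31. TRBV31 clonotypes carried it in 13.4% and 8.76% of cases in the treated tumors, 12.2% and 9.76% in the distant tumors, and 15.4% and 15.3% in the spleens. The other TRBV genes had 18.7% to 20.9%, so the ranges did not overlap. The log2 difference was -0.66 (SE 0.13, edgeR adjusted p = 0.00603). TRBJ1-4 and TRBJ2-7 were the 2 of 12 TRBJ genes called (16.7%).

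The call for TRBJ1-4 was lost without treated tumor 1 (log2 difference 0.96, edgeR adjusted p = 0.0789) and without distant tumor 1 (1.17, adjusted p = 0.0867), while TRBJ2-7 was called each time. With near variants merged, the TRBJ1-4 shares of TRBV31 were 22.8% and 16.8% in the treated tumors, 11.3% and 10.7% in the distant tumors, and 7.60% and 7.23% in the spleens, and the call held (log2 difference 1.01, edgeR adjusted p = 0.0305).

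Fitted alone, the spleens gave smaller differences for TRBJ1-4 and TRBJ2-7, with 9 of 12 TRBJ genes called by edgeR. TRBJ1-4 differed by 0.34 (edgeR adjusted p = 3.29e-08) and TRBJ2-7 by -0.34 (adjusted p = 2.43e-07). TRBJ2-3 was carried by 12.5% and 12.6% of TRBV31 clonotypes against 9.57% and 9.70% of the others, and TRBJ1-2 by 7.38% in both spleens against 5.21% and 5.23%. These spleen fits rest on 2 libraries, so their p-values reflect the many clonotypes counted and not a spread between mice. In the tumors alone TRBJ1-4 differed by 1.65 (SE 0.27, edgeR adjusted p = 0.00519) and TRBJ2-7 by -0.85 (SE 0.13, adjusted p = 0.00519). The tumor excess of TRBJ1-4, 12.1 percentage points ± 6.87 (SD, n = 4), was not shown to differ from that of the spleens, 1.67 ± 0.314 (SD, n = 2; two-sided exact permutation p = 0.133).

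The other 10 TRBJ genes were not called over all 6 libraries, with log2 differences between -0.43 for TRBJ2-4 and 0.35 for TRBJ1-2. TRBJ1-2 was called with clonotypes of at least 2 reads (log2 difference 0.74, edgeR adjusted p = 0.00608), without distant tumor 1 (0.49, adjusted p = 0.0374) and in the spleens alone. TRBJ1-1 ranged from 5.10% to 19.1% of TRBV31 clonotypes in the tumors and was 8.42% and 8.50% in the spleens. TRBJ2-3 ranged from 2.58% to 15.5% across tumors, on both sides of its spleen values. TRBJ2-1 was lower in TRBV31 than in the other TRBV genes in 6 of 6 libraries, by a log2 difference of -0.22 (edgeR adjusted p = 0.391).

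With TRBJ1-4 left out of both sides, an alternative chosen after its share was seen, the TRBJ1 excess of TRBV31 was 4.97 percentage points (exact paired permutation p = 0.0938, two-sided, n = 6). Distant tumor 1 then had a lower TRBJ1 share in TRBV31 than in the other genes, by -2.77 percentage points, and the other 5 libraries a higher one. TRBV12-1, with its high TRBJ1 share in distant tumor 1, was among the other genes.

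**Figure D3:**
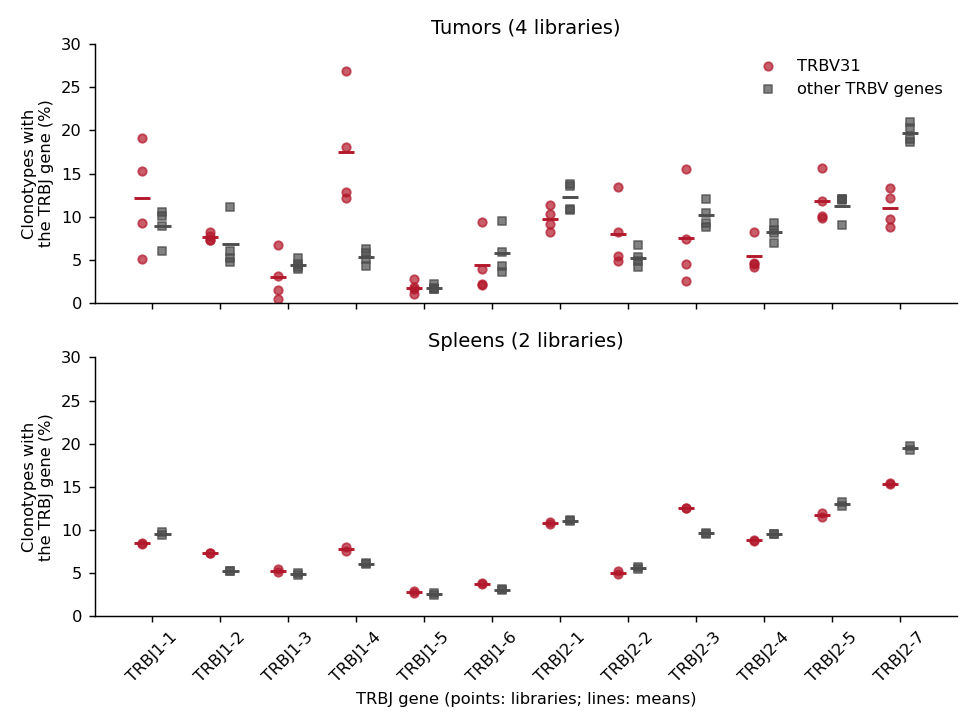
Percent of clonotypes carrying each TRBJ gene in tumors (upper panel) and spleens (lower panel), for TRBV31 (circles) and the other TRBV genes (squares), with 1 point per library and a line at the mean. TRBJ1-4 is above and TRBJ2-7 below the other genes in both panels, with TRBJ1-4 of TRBV31 between 12.2% and 26.9% in the tumors.

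The CDR3s of TRBV31 opened with the germline residues. Reads starting with CAW made up 90.1% to 93.9% of TRBV31 reads in every library, and reads starting with CAWS 65.6% to 86.0%. Of the clonotypes in the spleens, 89.7% and 88.3% started with CAW, but in the tumors only 62.9% to 75.3% did. The other TRBV genes showed a drop too, with a CASS start in 60.4% and 61.6% of spleen clonotypes and in 43.1% to 48.3% of tumor clonotypes. In the tumors 85.6% to 91.5% of TRBV31 clonotypes and 88.6% to 90.6% of the others started with C. In the spleens 97.6% and 96.9% of TRBV31 clonotypes and 97.2% and 97.1% of the others did. TRBV31 clonotypes of 2 or more reads started with CAW in 94.1% to 97.1% of cases in the tumors and in 96.7% and 96.9% in the spleens. Those of 1 read did so in 55.3% to 65.0% in the tumors, below the 87.2% and 85.3% of the spleens. Among spleen clonotypes that started with CAW, serine followed in 78.7%, arginine in 8.07% and glycine in 3.63%. No more than 0.0272% of the clonotypes of other TRBV genes in a library started with CAW. No TRBV31 clonotype of the tumors, and 9 in each spleen, occurred with the same CDR3 and TRBJ gene under another TRBV gene.

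TRBV31 CDR3s were slightly shorter than those of other TRBV genes. Their mean length was 13.9, 13.7, 13.8 and 13.8 residues in treated tumors 1 and 2 and distant tumors 1 and 2, and 13.7 and 13.6 in the spleens. The mean difference was -0.172 residues ± 0.0909 (SD, n = 6), lower in 6 of 6 libraries, and missed the threshold after adjustment over 6 features (exact paired permutation, adjusted p = 0.0625, two-sided). The median was 14 residues for both kinds in every library. In the spleens a mean of 3.53 and 3.48 residues of a TRBV31 CDR3 matched the germline V end, against 4.05 and 4.02 for the other TRBV genes with an annotated end. The residues between the V and J matches were 4.57 and 4.62 against 4.39 and 4.43. In the tumors they were 6.25 against 6.11 in treated tumor 1, but fewer for TRBV31 in the other 3, with 6.32 against 6.46 in treated tumor 2, 5.77 against 6.21 in distant tumor 1 and 5.70 against 5.85 in distant tumor 2.

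Within the middle of the CDR3, taken from residue 5 to the residue 6 before the end, TRBV31 was more often net positive. In the treated tumors 32.6% and 32.5% of TRBV31 clonotypes had more K and R than D and E there, against 20.2% and 17.0% of the others. The distant tumors had 25.1% and 25.0% against 18.4% and 18.7%, and the spleens 20.5% and 21.1% against 16.5% and 16.8%. The mean difference was 8.20 percentage points ± 4.71 (SD, n = 6; 6 of 6 higher; exact paired permutation, adjusted p = 0.0625).

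A hydrophobic residue (F, I, L, M, V or W) in the middle was also more frequent, by 10.1 percentage points ± 3.33 (SD, n = 6; 6 of 6 higher; exact paired permutation, adjusted p = 0.0625). TRBV31 clonotypes had one in 57.7% to 63.9% of cases per library, and the others in 48.5% to 53.6%. Neither feature passed the threshold, and the exact p of 0.0312 before adjustment is the smallest that 6 libraries allow. Weighted by reads, the hydrophobic difference was -10.8 percentage points in distant tumor 1 and above 0 in the other libraries. TRBV12-1 held 24.4% of the productive reads of distant tumor 1 and was among the other genes there. The net positive difference by reads was -0.582 in distant tumor 2 and above 0 in the others.

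Residue 5 carried most of both mean differences, though not in every library. Leucine, which the untrimmed TRBV31 end encodes there, stood at residue 5 in 33.4% to 42.7% of TRBV31 clonotypes and in 15.9% to 24.7% of the others. Arginine stood there in 10.6% to 16.3% against 7.38% to 9.57%. The middle was then taken from residue 6, chosen after these values were seen. The hydrophobic difference was -1.96 percentage points ± 5.29 (SD, n = 6, 1 of 6 higher). The net positive difference was 1.45 ± 4.38 (SD, n = 6, 3 of 6 higher). Each had an adjusted p of 0.675 by the exact paired permutation test. Treated tumor 2 kept a net positive difference of 9.06 points, against 15.5 from residue 5. Treated tumor 1 kept a hydrophobic difference of 7.56 points, against 14.6 from residue 5.

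**Figure D4:**
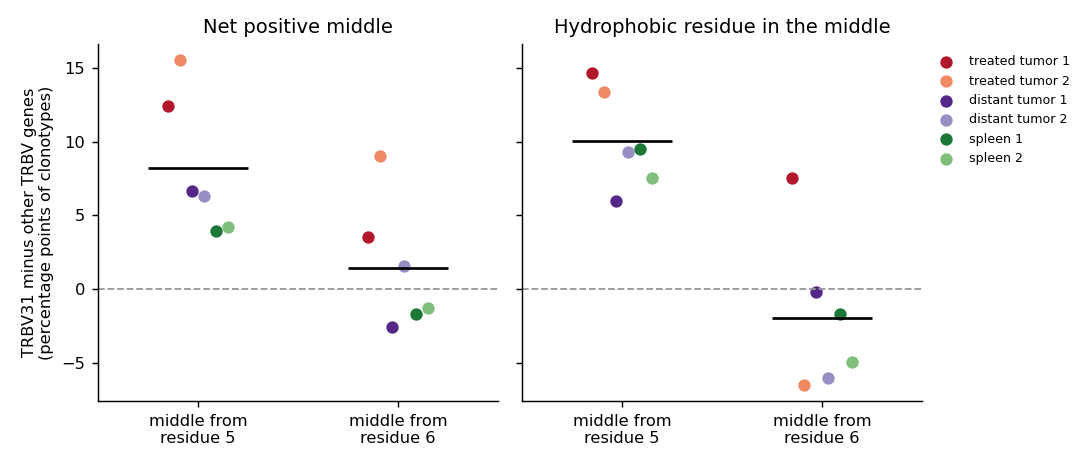
TRBV31 minus the other TRBV genes, in percentage points of clonotypes, for a net positive middle (left) and a hydrophobic residue in the middle (right), with 1 point per library and a line at the mean of 6. All points are above 0 when the middle starts at residue 5, and they lie on both sides of 0 when it starts at residue 6.

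The other features did not differ beyond the spread between libraries. GG in the middle differed by 0.776 percentage points ± 5.07 (SD, n = 6; exact paired permutation, adjusted p = 0.750), with treated tumor 1 at 10.6% against 18.0% and distant tumor 1 at 27.1% against 19.5%. Residues that TRBD1 can encode, GQG or DRG, differed by 0.676 percentage points ± 3.20, and residues that TRBD2 can encode, GLG or DWG, by -0.941 ± 1.58 (SD, n = 6 each; exact paired permutation, adjusted p = 0.750 and 0.328). These TRBD2 residues followed the J cluster. In the spleens they were found in 0.144% and 0% of TRBV31 clonotypes with a TRBJ1 gene and in 8.65% and 7.96% of those with a TRBJ2 gene. The other TRBV genes had 0.196% and 0.234% with TRBJ1 and 9.76% and 9.29% with TRBJ2.

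TRBV31 reads were concentrated in fewer clonotypes in tumors than in spleens, and this was not particular to TRBV31. The other TRBV genes had 4.11 to 7.47 reads per clonotype in the tumors, and both kinds had 1.47 to 1.52 in the spleens. TRBV31 had fewer reads per clonotype than the others in every tumor but treated tumor 1. These ratios were not taken at equal depth, and the values that follow are for TRBV31 alone. At an equal depth of 1032 TRBV31 reads, the treated tumors held 207 and 169 clonotypes, the distant tumors 255 and 312, and the spleens 902 and 931. The most abundant clonotype took 12.3% and 9.60% of TRBV31 reads in the treated tumors, 6.69% and 16.1% in the distant tumors, and 2.78% and 0.763% in the spleens. The difference of 9.40 percentage points between tumors and spleens gave a two-sided exact permutation p of 0.0667 for 4 libraries against 2, the smallest p this design allows. The 10 most abundant took 32.5% to 54.4% in the tumors, against 6.56% and 4.59% in the spleens. No TRBV31 clonotype was among the 10 most abundant of a tumor library, where the highest ranks were 18 and 68 in the treated tumors and 89 and 20 in the distant tumors. In the spleens the highest ranks were 2 and 14.

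The clonotypes at the head of the tumor lists are shown with their reads, since they carry much of the TRBV31 signal. Reads are given in the order treated tumor 1, treated tumor 2, distant tumor 1, distant tumor 2, spleen 1 and spleen 2. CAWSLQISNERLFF (TRBJ1-4) had 421, 16, 3, 8, 10 and 19 reads, and its 421 reads were 12.3% of the TRBV31 reads of treated tumor 1. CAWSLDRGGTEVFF (TRBJ1-1) had 1, 76, 0, 179, 2 and 44 reads, and its 179 reads were 16.1% of the TRBV31 reads of distant tumor 2. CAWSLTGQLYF (TRBJ2-2) had 117 reads in treated tumor 2 and 2 in spleen 2. The first was high in treated tumor 1 alone, and the other 2 in libraries of number 2.

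In distant tumor 1 the leading clonotypes were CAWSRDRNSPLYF (TRBJ1-6), with 69 reads there and 45 in treated tumor 1, and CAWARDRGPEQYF (TRBJ2-7), with 63 there, 29 in treated tumor 1 and 5 in spleen 1. Both were listed in no library of number 2. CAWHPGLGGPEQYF (TRBJ2-7) had 129 reads in treated tumor 1 and none elsewhere, where a count of 0 allows up to 0.00365% of the reads of distant tumor 1. Spleen 1 was headed by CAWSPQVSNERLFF (TRBJ1-4), with 167 of its 5944 TRBV31 reads, and spleen 2 by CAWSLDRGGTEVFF.

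Few TRBV31 clonotypes were found in more than 1 library, and 5 of the 8 found in 5 or 6 libraries resembled one another. Of 9372 clonotypes, 8889 (94.8%) were in 1 library, 428 in 2, 42 in 3, 5 in 4, 5 in 5 and 3 in 6. Summed over libraries these 9372 were listed 9934 times, and the 187625 clonotypes of all TRBV genes 198807 times. Those proportions are nearly the same, so the low overlap is not particular to TRBV31. The 3 in all 6 libraries and 2 of the 5 in 5 libraries used TRBJ1-4 and had 14 residues that differed at residue 5 and residue 7 alone. They are shown because they are 5 of these 8 most widely found clonotypes, and reads follow the library order above. The other 3, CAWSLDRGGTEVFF and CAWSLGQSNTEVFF with TRBJ1-1 and a CDR3 of 15 residues with TRBJ2-2, were not of this form.

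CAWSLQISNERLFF: 421, 16, 3, 8, 10 and 19 reads
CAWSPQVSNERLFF: 135, 16, 18, 16, 167 and 22 reads
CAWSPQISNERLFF: 68, 28, 7, 2, 10 and 5 reads
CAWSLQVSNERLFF: 64, 77, 29, 0, 2 and 4 reads
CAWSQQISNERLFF: 82, 28, 0, 7, 1 and 6 reads

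Each was more abundant in treated tumor 1 than in distant tumor 1 as a share of reads, and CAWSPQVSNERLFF had a similar share in spleen 1 (0.172%) and in treated tumor 1 (0.162%). Over all libraries, 15 distinct TRBV31/TRBJ1-4 CDR3s had this form, with CAWS, any residue, Q, then I or V, then SNERLFF. The form was defined after these clonotypes were seen, so its values are a description. These 15 took 27.1% of TRBV31 reads in treated tumor 1 (Wilson 95% interval 25.6% to 28.6%), 13.5% in treated tumor 2 (11.7% to 15.5%), 6.01% in distant tumor 1 and 4.22% in distant tumor 2. The spleens had 3.38% and 1.06%. The order of the groups was treated tumors, distant tumors, spleens, with no overlap between the groups.

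The family made up 1.12% of all productive reads in treated tumor 1, 0.294% in treated tumor 2 and 0.0546% to 0.207% elsewhere, where spleen 1 was above both distant tumors. It held between 5 and 11 clonotypes per library, which were 8.03% to 22.6% of the TRBV31/TRBJ1-4 clonotypes in the tumors, against 2.88% and 2.79% in the spleens. Under other TRBV genes the form without the CAWS start was also found. It made up 1.83% and 1.64% of their TRBJ1-4 clonotypes in the spleens and 0.142% to 1.28% in the tumors. By reads the TRBV31 family was 77.1% and 61.3% of TRBV31/TRBJ1-4 in the treated tumors. Its removal left the TRBJ1 excess of TRBV31 at 9.31 percentage points (exact paired permutation p = 0.0312, n = 6). That p is the smallest that 6 libraries allow, and near variants of these CDR3s were not removed. In distant tumor 1, where the other genes include TRBV12-1, the excess was then 0.492 points by clonotypes and -2.16 by reads. In the other libraries it was above 0 by both. The TRBJ1-4 share of the remaining TRBV31 clonotypes was 25.3% and 15.9% in the treated tumors, so most of the TRBJ1-4 clonotypes there, though not most of their reads, lay outside the family. In treated tumor 1, 80.2% of TRBV31 clonotypes had 1 read and merging near variants removed 33.8%, so this count includes near variants. With near variants merged, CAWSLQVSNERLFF and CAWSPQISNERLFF in spleen 1 were absorbed by the 167 reads of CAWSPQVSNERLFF, and the 1 read of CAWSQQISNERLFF by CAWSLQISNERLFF. Whether reads passed between libraries was not tested.

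The germline letters can spell nearly all of these CDR3s, which does not show how they arose. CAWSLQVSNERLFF can be spelled from 14 bases of TRBV31, 5 of TRBD1 and 23 of TRBJ1-4 with 0 added bases. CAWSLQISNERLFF and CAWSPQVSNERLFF need at least 1 added base, and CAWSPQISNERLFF and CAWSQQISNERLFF at least 2. The SNERLFF end is the germline start of TRBJ1-4 read after its first 2 bases. The lowest number of added bases was computed for every TRBV31 clonotype from its residues, since no nucleotides are listed. Its mean was 1.19 ± 1.67 (SD) for the 347 clonotypes found in both spleens and 4.78 ± 5.05 for the 7830 found in 1 spleen alone. The family supplied 7 of the 347, and without it the mean was 1.19 over 340 clonotypes. A misread residue would not be told apart from added bases in these counts. Spleen clonotypes of 1 read started with CAW in 87.2% and 85.3% of cases, against 96.7% and 96.9% of those with 2 or more. Whether read number bears on the difference in added bases was not tested.

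**Figure D5:**
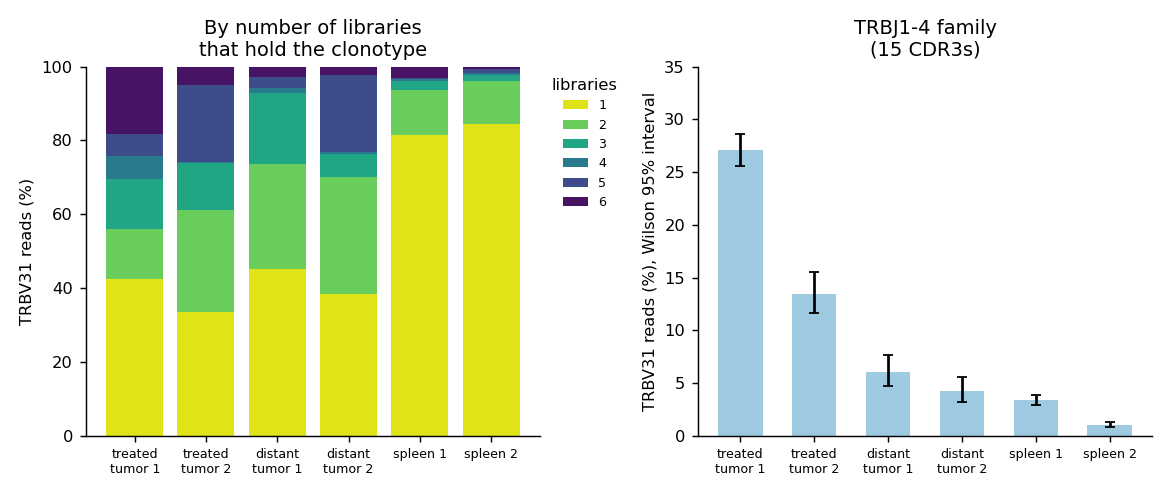
Left: percent of the TRBV31 reads of each library by the number of libraries that hold the clonotype (yellow: 1 library, dark purple: 6). Right: percent of TRBV31 reads in the 15 TRBJ1-4 CDR3s of the family, with Wilson 95% intervals. Clonotypes of 1 library hold 81.4% and 84.6% of TRBV31 reads in the spleens and 33.6% to 45.2% in the tumors, and the family is highest in treated tumor 1 at 27.1%.

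TRBV31 clonotypes of the tumors were more often shared within a number than across numbers when counted as clonotypes, a difference that was not tested. Treated tumor 1 shared 19 of its 509 TRBV31 clonotypes with distant tumor 1, and these held 40.3% of its TRBV31 reads. It shared 12 with distant tumor 2, with 25.3% of its reads. Treated tumor 2 shared 14 of 194 with distant tumor 2 (34.6% of its reads) and 5 with distant tumor 1 (11.9%). Seen from distant tumor 2 the gap was small, with 14 of 328 in treated tumor 2 (25.3% of its reads) and 12 in treated tumor 1 (24.9%). Distant tumor 2 shared 68 of 328 with spleen 2 (58.7% of its reads) and 30 with spleen 1 (28.9%), and distant tumor 1 shared 44 of 255 with spleen 1 (43.2%) and 20 with spleen 2 (13.2%). As a share of the much longer spleen lists, the 68 were 1.44% of the TRBV31 clonotypes of spleen 2 and the 44 were 1.12% of those of spleen 1. The other TRBV genes showed the same order by number in these pairs of tumors, with 4.78% of the clonotypes of treated tumor 1 in distant tumor 1 and 1.07% in distant tumor 2. For distant tumor 2, 12.9% of their clonotypes were in spleen 2 and 4.79% in spleen 1. For distant tumor 1, 7.26% were in spleen 1 and 4.29% in spleen 2. By reads the other genes of distant tumor 1 had the opposite order, with 34.6% in spleen 1 and 41.7% in spleen 2.

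Most TRBV31 clonotypes with enough reads differed between the treated and the distant tumor library of the same number, as did those of all TRBV genes. Fisher's exact test compares 2 libraries here and not the conditions. In number 1, 77 of 78 TRBV31 clonotypes with at least 10 reads differed after Benjamini-Hochberg adjustment over 2257 clonotypes, against 95.7% of all clonotypes tested. Of these, 55 were higher on the treated side and 22 on the distant side, whereas the treated tumor was higher for 54.2% of all clonotypes tested. In number 2, 32 of 35 differed (94% of all tested), 19 higher on the treated side (48.2% of all tested) and 13 on the distant side. The minimum counts reads of both libraries together, so a clonotype missing from 1 library enters through its reads in the other. Its call and direction were then largely set by that minimum. Number 1 had 43 such clonotypes listed only for its treated side and 18 only for its distant side. Number 2 had 13 and 12. These counts therefore do not measure how many TRBV31 clonotypes changed. The balance moved with the minimum: with at least 5 reads, 63 were higher on the treated side and 55 on the distant side in number 1, and 22 and 41 in number 2, where the treated side was higher for 45.9% and 30.9% of all tested. These shares were not tested against each other.

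Between the tumors of number 1, 17 of the 78 TRBV31 clonotypes were seen in both libraries, and 10 in number 2. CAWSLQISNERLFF was 0.506% of treated tumor 1 and 0.00365% of distant tumor 1, a ratio of 139 that rests on 3 distant-tumor reads (adjusted p = 3.61e-118 by Fisher's exact test). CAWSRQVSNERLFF, of the same family, had 123 reads in treated tumor 1 and 1 in distant tumor 1 (adjusted p = 4.07e-34). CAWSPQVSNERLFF was 7.41 times as high in treated tumor 1 and 0.755 times as high in treated tumor 2, where it did not differ (adjusted p = 0.486). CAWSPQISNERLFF was higher in the treated tumor in both numbers, 9.59 times and 10.6 times (adjusted p = 8.59e-13 and 2.97e-05).

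Others were higher in the distant tumor. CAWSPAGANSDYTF (TRBJ1-2) had 12 reads in treated tumor 1 and 46 in distant tumor 1 (adjusted p = 9.03e-06 by Fisher's exact test), and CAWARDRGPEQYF had 29 and 63 (adjusted p = 0.000443). In number 2, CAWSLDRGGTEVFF had 76 treated-tumor and 179 distant-tumor reads, 0.321 times as high as a share of reads (adjusted p = 1.40e-17). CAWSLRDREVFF (TRBJ1-1) went the other way, with 58 and 6 reads (adjusted p = 1.63e-08), and so did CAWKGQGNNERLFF (TRBJ1-4), with 35 and 3 (adjusted p = 6.12e-06).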

How the data were processed

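TCR-β cDNA of 6 libraries (treated tumor, distant tumor and spleen, 2 each) was sequenced on a MiSeq with paired 300 bp reads, per the labels' protocols. The deposited counts are whole reads per TRBV gene, TRBJ gene and CDR3, not normalized. The percent values deposited by the authors matched reads over productive reads to within 0.00499 percentage points and were recomputed here. No source used here names the aligner, germline reference or error handling.

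TRBV31 rows without a stop (*) or frame (.) mark were kept. Usage was tested with edgeR 4.0.16 (quasi-likelihood, library-total scaling, filterByExpr, 6 libraries in 3 groups) on reads per TRBV gene, TRBJ partners on clonotypes with the library as a block, and single values with exact permutation tests at a threshold of 0.05. All p-values adjusted for multiple tests follow Benjamini and Hochberg. DESeq2 1.42.0 was an alternative. Python 3.11.15 and scipy 1.17.1 were used. The scripts were tested on simulated data. Productive depth was 42320 to 135599 reads, so 1 read is 0.000737% to 0.00236% of a library, and a count of 0 allows 3 reads.

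Equal-depth values are means of 100 draws. Added bases are the fewest that complete a CDR3 from GENCODE M21 V, D and J ends, with D matches of at least 3 bases. Named clonotypes were the 5 with the most TRBV31 reads in each library, those in 5 or 6 libraries, and for each number the 5 in both tumors with the highest lower count. Clonotypes over 14 residues are counted but not spelled. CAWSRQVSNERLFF, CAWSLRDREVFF and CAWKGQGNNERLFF fell outside this rule and were chosen after their values were seen. The members, lists and tests were chosen with earlier results of these data known. Alternatives were other scaling, filters, tools, units, merged variants, a replicate block and leaving out each library.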

Additional observations from a re-analysis of the deposited data

Results flagged for a closer look

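Sequences assigned to TRBV31 that carry a stop or frame mark lie outside the productive set and are in no comparison above. They were present in every library above the 3 reads that a count of 0 allows. Marked TRBV31 reads numbered 407 in treated tumor 1, 105 in treated tumor 2, 469 in distant tumor 1, 247 in distant tumor 2, 724 in spleen 1 and 955 in spleen 2. They were 10.6% and 7.90% of all TRBV31 reads in the treated tumors, 31.2% and 18.1% in the distant tumors, and 10.9% and 12.1% in the spleens. The other TRBV genes had marked shares of 5.01%, 4.37%, 3.996%, 4.42%, 6.01% and 6.30%, so TRBV31 was higher in 6 of 6 libraries. As sequences, 33.6% of the TRBV31 rows of distant tumor 1 were marked and 13.0% of those of spleen 1. The largest marked TRBV31 sequence had 130 reads in distant tumor 1 and 110 in distant tumor 2, so single sequences held much of the marked reads there, whereas the largest in the spleens had 10 and 11. These differences were not tested. With marked reads counted, the TRBV31 difference between tumors and spleens was -1.07 on the log2 scale (edgeR adjusted p = 0.162).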

How the results depend on the processing

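The TRBV31 difference in usage between tumors and spleens kept its direction under all 14 alternatives, from -1.50 to -0.80 on the log2 scale (adjusted p 0.00676 to 0.800). It passed with clonotypes counted once (-0.90), with near variants also merged (-0.80), and without distant tumor 2 (-1.50). Leaving out 1 library gave -1.50 to -0.97. Treated against distant tumor kept its direction and did not pass under any of 14 alternatives (0.11 to 1.33). The TRBJ1 excess was 7.59 to 11.8 percentage points without 1 library, where 5 libraries cannot give an exact p under 0.0625. Without TRBJ1-4 it was 4.97 and no longer passed. The number of TRBJ genes called was 9 in the spleens alone, 3 with clonotypes of at least 2 reads (TRBJ1-2 added), and 1 or 2 without 1 library.

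Directions that turned were those of features and TRBJ genes that were not called over all 6 libraries. GG in the middle differed by -1.88 percentage points in reads, a hydrophobic middle by -1.96 from residue 6, and without 1 library GG ranged from -0.591 to 2.40 and GQG or DRG from -0.477 to 1.12. In log2 differences, TRBJ1-5 was -0.043 and TRBJ2-5 0.046 in reads. With clonotypes of at least 2 reads TRBJ1-1 was -0.011, TRBJ1-6 0.089, TRBJ2-2 -0.055 and TRBJ2-3 0.073. TRBJ2-5 was 0.028 with variants merged and 0.055 in the tumors alone. In the spleens alone TRBJ1-1 was -0.18, TRBJ1-3 0.11, TRBJ1-6 0.29, TRBJ2-2 -0.15 and TRBJ2-3 0.38, all but TRBJ1-3 past edgeR's threshold there (adjusted p = 0.00201, 0.0386, 0.0488 and 4.56e-10). Without 1 library the ranges were -0.12 to 0.30 for TRBJ1-1, -0.030 to 0.18 for TRBJ1-5, -0.30 to 0.15 for TRBJ1-6, -0.016 to 0.40 for TRBJ2-2, -0.42 to 0.085 for TRBJ2-3 and -0.18 to 0.032 for TRBJ2-5. Causes were not tested. TRBV31 clonotypes that differed between treated and distant tumor numbered 118 with at least 5 reads and 19 with at least 50 in number 1, and 63 and 8 in number 2, since fewer are tested at a higher minimum.

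Whether a shared number means a shared mouse is not stated in the labels. Over 22 TRBV genes, deviations from the group means of same-numbered libraries correlated at 0.299 between the tumors, at 0.184 between the treated tumor and the spleen, and at 0.0558 between the distant tumor and the spleen. With the replicate block the usage differences were 0.68 (treated against distant, edgeR adjusted p = 0.416) and -1.18 (tumors against spleens, adjusted p = 0.232), and no call changed. With 2 libraries a group, 2 against 2 cannot give an exact p under 0.333.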
